A study of Mus musculus with 8 samples.

Results

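The NKG2D stress ligands and their receptor were followed across the liver arrays through every non-control probe named Raet1a, Raet1b, Raet1c, Raet1d, Raet1e, Ulbp1 or Klrk1 in the array files. These 7 names matched 4 of the 27218 names on the array and 6 probes of 41174: 2 for Raet1a, 1 for Raet1e, 1 for Ulbp1 and 2 for Klrk1. Raet1b, Raet1c and Raet1d named 0 probes. The genes were chosen by their measured differences between the diet groups in these same arrays, so their own values are given as a description and carry no test. Of the 6 probes, 4 exceeded background clearly on both arrays of some group, the condition for entering the fit across all probes: both Raet1a probes, the Raet1e probe and 1 Klrk1 probe. The Ulbp1 probe and the other Klrk1 probe did not meet it.

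Total liver RNA of male, wild type C57Bl/6J mice aged 14 weeks was hybridised to 8 single-colour Agilent arrays, 2 for each of 4 diet groups, and all animals were fasted for 4 h before collection. The dams of BD_HF mice ate a standard breeder diet, and the offspring ate a 60% fat diet (share of energy) from weaning on, which the labels present as the way obesity was induced. LF_HF mice ate the same 60% fat diet from weaning on, but from embryonic day 10.5 their dams ate a defined diet with 12% fat and sufficient vitamin A. VAD_VAD mice had a vitamin A deficient version of the 12% low fat diet through the dam and after weaning. LF_LF mice had the vitamin A sufficient low fat diet in both periods and served as the control for deficiency and for the high fat diet. Since the labels leave unstated whether every sample is a separate animal, p-values reflect only the spread among these samples. The study compared BD_HF with LF_HF, LF_HF with LF_LF, and VAD_VAD with LF_LF.

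NKG2D, encoded by Klrk1, is an activating receptor on natural killer cells and some T cells. It binds surface proteins related to MHC class I that healthy cells carry at low levels and that infected, damaged, transformed or proliferating cells can display. In mice these ligands are the Rae-1 proteins (Raet1 genes), the H60 proteins and MULT1, encoded by Ulbp1. Raet1 stands for retinoic acid early transcript: the genes were isolated as transcripts that retinoic acid induces in mouse embryonal carcinoma cells. C57BL/6 mice are known to carry the Raet1d and Raet1e forms, while Raet1a, Raet1b and Raet1c are known from other strains such as BALB/c.

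The probes decide which Raet1 form the signal can come from, so their 60 base sequences are shown, with mm9 positions from the array files. The capitals mark the bases at which the second Raet1a probe and the Raet1e probe differ where they overlap. The first Raet1a probe (A_51_P256766, chr10:22091401-22092018, plus strand) spans 618 bases of genome, longer than the probe, so that its match is split there, and the files list it against 4 RefSeq records, 1 of which is a Raet1e transcript in the reference gene table. The second Raet1a probe (A_51_P256771, chr10:22091319-22091378, plus strand) is listed against 3 RefSeq records, 1 of which is a Raet1d transcript. The Raet1e probe (A_52_P10063, chr10:21901099-21901158, plus strand) is listed against 1 record, of Raet1e. Exon annotation of mm9 was not used here.
Raet1a A_51_P256766: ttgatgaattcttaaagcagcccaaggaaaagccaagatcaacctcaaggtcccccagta
Raet1a A_51_P256771: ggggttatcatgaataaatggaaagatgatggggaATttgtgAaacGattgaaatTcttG
Raet1e A_52_P10063: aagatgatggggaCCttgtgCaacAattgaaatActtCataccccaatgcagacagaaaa
Ulbp1 A_51_P425847: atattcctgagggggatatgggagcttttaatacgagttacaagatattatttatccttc
Klrk1 A_51_P189451: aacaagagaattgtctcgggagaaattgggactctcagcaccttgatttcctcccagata
Klrk1 A_52_P272778: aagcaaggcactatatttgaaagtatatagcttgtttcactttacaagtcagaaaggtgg

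The second Raet1a probe and the Raet1e probe share a stretch of 38 bases, of which 32 (84.2%) were identical and 6 differed. No other pair of the 6 probes exceeded 48.6% identity in the best ungapped overlap of at least 30 bases. The first Raet1a probe and the Raet1e probe do not share sequence in this way. The second Raet1a probe ends at base 22091378 and the first starts close by at 22091401, and the first is itself listed against a Raet1e transcript. The Raet1 probes are therefore not taken as independent readings. With near-identical genes and records of Raet1d and Raet1e behind probes named Raet1a, the member that gave the signal is uncertain, and the probe names are kept below as the files give them. The Ulbp1 probe lies on unplaced sequence (chrUn_random:3074042-3074101, plus strand) and is listed against 0 RefSeq records. The Klrk1 probes lie on the minus strand at chr6:129562482-129562771 (0 RefSeq records) and chr6:129561864-129561923 (3 records, of Klrk1).

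The library labelled LF_HF replicate 1 stood apart, and the Raet1 and Klrk1 differences that rest on it are given with and without it. Among the other genes this is done only for some. It had 2707 outlier spots among the gene probes, against 46 to 316 on the other arrays, and 87.5% of its probes were well above background, against 56.8% to 64.2%. Its 75th percentile of intensity, by which each array was scaled, was 496, against 195 to 296 elsewhere. The excess lay in dim probes: of the 14950 probes that did not enter the fit, 65.7% were well above background on this array, against 0.314% to 6.74% on the others. The SD of the replicate difference over probes was 1.48 log2 units in LF_HF, against 0.565 in BD_HF, 0.702 in VAD_VAD and 0.40 in LF_LF. Liver identity was clear on all 8 arrays, with Alb, encoding albumin, between 287726 and 358328.

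The Raet1 signal was highest in LF_LF livers, intermediate in livers of both high fat groups and close to or below background in VAD_VAD livers, on all 3 Raet1 probes. Across these probes the processed intensity ran from 21.2 to 124 in BD_HF livers, from 20.5 to 369 in LF_HF livers, from 1.80 to 21.6 in VAD_VAD livers and from 497 to 1174 in LF_LF livers. The Ulbp1 probe and the second Klrk1 probe were well above background on LF_HF replicate 1 alone. The first Klrk1 probe was close to background in all groups other than on that array. In bulk liver RNA, fewer cells of a type and less RNA per cell cannot be told apart.

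The first Raet1a probe read 97.7 and 124 in BD_HF livers, 369 and 69.8 in LF_HF livers, 21.6 and 8.63 in VAD_VAD livers and 1078 and 1174 in LF_LF livers. No array of another group reached the LF_LF intensities, both VAD_VAD arrays lay below all others, and the 2 LF_HF arrays lay on either side of the BD_HF pair. The VAD_VAD value of 8.63 was the only one of the 8 not well above background. On the log2 scale after scaling, VAD_VAD averaged −4.11 ± 0.83 and LF_LF 1.94 ± 0.07 (SD, n = 2 each), a difference of −6.05 ± 0.51 (SE), or 66.2-fold lower in VAD_VAD. Arrays of replicate 1 shared 1 slide and arrays of replicate 2 another, and the difference was −5.41 on slide 1 and −6.69 on slide 2.

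The high fat groups differed less from LF_LF on this probe. LF_HF averaged −0.96 ± 0.75 (SD, n = 2), which was −2.90 ± 0.51 (SE) from LF_LF, 7.44-fold lower, and −3.42 ± 0.49 without LF_HF replicate 1. BD_HF averaged −1.07 ± 0.30 (SD, n = 2), which was −3.01 ± 0.51 (SE) from LF_LF, 8.04-fold lower. Between the high fat groups, BD_HF minus LF_HF was −0.11 ± 0.51 and turned to 0.42 ± 0.49 without LF_HF replicate 1, so its direction depended on that array.

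The second Raet1a probe read 60.0 and 64.3 in BD_HF livers, 36.3 on the 1 usable LF_HF array, 3.89 and 1.87 in VAD_VAD livers and 609 and 701 in LF_LF livers. Its spot on LF_HF replicate 1 was marked as an outlier and left out. With that spot it would have read 544 there, still below both LF_LF arrays. Neither VAD_VAD array was well above background, so the fall against LF_LF is given against a floor, as 77.5-fold. The measured difference was −7.61 ± 0.40 (SE). The floor sets each VAD_VAD array at the lowest signal among probes well above background on it, or at the probe's own signal if higher. The floor-based fold is lower than the measured ratio because values under background have no reliable size. It is not a guaranteed minimum. On VAD_VAD replicate 2 the first Raet1a probe, at −4.70 after scaling, lay above the floor of −5.07 without being well above background.

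The high fat groups again lay between VAD_VAD and LF_LF on this probe. BD_HF minus LF_LF was −3.05 ± 0.40 (SE), 8.28-fold lower, and nearly the same on both slides, at −3.04 and −3.05. LF_HF minus LF_LF was −3.58 ± 0.49 from 1 LF_HF array. BD_HF minus LF_HF was 0.53 ± 0.49, with the same 1 LF_HF array.

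The Raet1e probe read 21.2 and 23.98 in BD_HF livers, 219 and 20.5 in LF_HF livers, 5.43 and 1.80 in VAD_VAD livers and 497 and 617 in LF_LF livers. VAD_VAD was again lowest and LF_LF highest, with LF_HF replicate 1 about midway on the log scale between the other high fat arrays and LF_LF. Neither VAD_VAD array was well above background, and the fall against LF_LF by the same floor was 65.7-fold. The measured difference was −7.15 ± 0.73 (SE), with slide values of −6.29 and −8.02. BD_HF minus LF_LF was −4.27 ± 0.73, 19.3-fold lower, and LF_HF minus LF_LF was −3.13 ± 0.73, or −4.17 ± 0.57 without LF_HF replicate 1. BD_HF minus LF_HF was −1.14 ± 0.73, and −0.10 ± 0.57 without that array, so the 3 Raet1 probes gave no common order of the high fat groups.

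The size of the VAD_VAD fall depended on how background was handled. With normexp background correction and 75th percentile scaling, VAD_VAD minus LF_LF was −3.38 on the first Raet1a probe, −3.19 on the second and −2.98 on the Raet1e probe. These falls were smaller than the values and floor-based folds above, which are those of the processed signal.

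VAD_VAD was also set against LF_HF as values, although these groups differ in fat and in vitamin A. The first Raet1a probe differed by −3.15 ± 0.51 (SE), and by −2.62 ± 0.49 without LF_HF replicate 1. For the second Raet1a probe the VAD_VAD level by the same floor was 6.47-fold lower than the 1 LF_HF array. For Raet1e it was 7.50-fold lower than the mean of both LF_HF arrays, or 3.65-fold lower without LF_HF replicate 1.

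**Figure D1:**
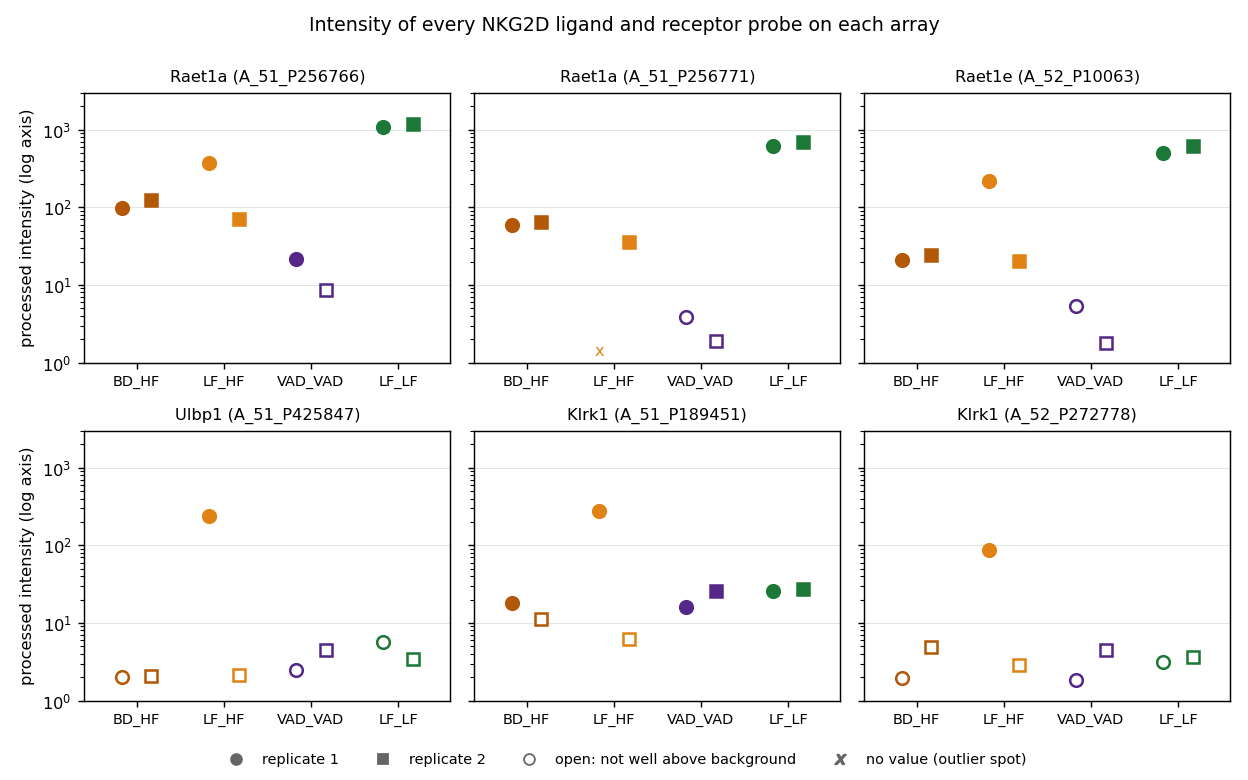
Processed intensity (log axis) of the 6 member probes on each of the 8 arrays, by diet group, with circles for replicate 1, squares for replicate 2 and open symbols for spots not well above background. On the Raet1 probes the LF_LF arrays lie at 497 to 1174 and the VAD_VAD arrays at 1.80 to 21.6, and on the Ulbp1 probe and the second Klrk1 probe LF_HF replicate 1 alone is well above background.

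Groups whose arrays do not overlap were common over all probes, which sets the scale for reading the Raet1 order. Both VAD_VAD arrays lay below both LF_LF arrays for the 3 Raet1 probes and for 24.7% of 26220 kept probes. Both BD_HF arrays lay below both LF_LF arrays for the 3 Raet1 probes and for 24.1% of 26024. Both LF_HF arrays lay below both LF_LF arrays for the 2 Raet1 probes with 4 values and for 18.5% of 24680, and BD_HF lay wholly below LF_HF for 0 Raet1 probes with 4 values, against 11.8% of 24485. The full order, VAD_VAD lowest, high fat arrays between and LF_LF highest, held for 282 of 24481 probes (1.15%) with LF_HF replicate 1 left out. Since the genes were chosen on these contrasts, nothing is read from their place among these shares.

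Ulbp1 encodes MULT1, the third kind of mouse NKG2D ligand. Its probe read 2.00 and 2.05 in BD_HF livers, 238 and 2.11 in LF_HF livers, 2.44 and 4.43 in VAD_VAD livers and 5.60 and 3.38 in LF_LF livers. Only LF_HF replicate 1 was well above background, and no level can be given for the other 7 arrays. No fold is given between diet groups that were all below background apart from this array.

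The H60 ligands, genes outside the 7 names, were likewise raised on LF_HF replicate 1. The 2 probes for H60a, which C57BL/6 mice are known not to express, read 949.5 and 366 on LF_HF replicate 1, against at most 8.77 and 8.13 on the other 7 arrays. The H60c probe read 116 there, against at most 8.003 elsewhere. H60b had no probe under that name. Of the 3 listed H60 genes, 0 met the condition for the fit.

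Klrk1 itself, the receptor on lymphocytes, was read by 2 probes. The first (A_51_P189451) read 18.0 and 11.3 in BD_HF livers, 275 and 6.28 in LF_HF livers, 15.9 and 25.6 in VAD_VAD livers and 25.6 and 27.3 in LF_LF livers. The second BD_HF array and the second LF_HF array were not well above background. VAD_VAD minus LF_LF was −0.08 ± 1.15 (SE), with slide values of −0.46 and 0.31, and the groups overlapped. BD_HF minus LF_LF was −0.55 ± 1.15. Both BD_HF arrays lay below both LF_LF arrays, as they did for 24.1% of kept probes with 4 values.

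For the LF_HF group the direction of this Klrk1 probe depended on 1 array. LF_HF minus LF_LF was 0.57 ± 1.15 with all arrays and −1.49 ± 0.43 without LF_HF replicate 1, and BD_HF minus LF_HF was −1.11 ± 1.15 and 0.94 ± 0.43 in the same settings. The second Klrk1 probe (A_52_P272778) read 1.95 and 4.94 in BD_HF livers, 85.8 and 2.86 in LF_HF livers, 1.83 and 4.46 in VAD_VAD livers and 3.104 and 3.68 in LF_LF livers. It was well above background on LF_HF replicate 1 alone. The array files list this second probe against 3 RefSeq records, all of Klrk1, and the first probe against 0. The receptor values above therefore rest on a probe that has the Klrk1 name but no listed RefSeq record.

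**Figure D2:**
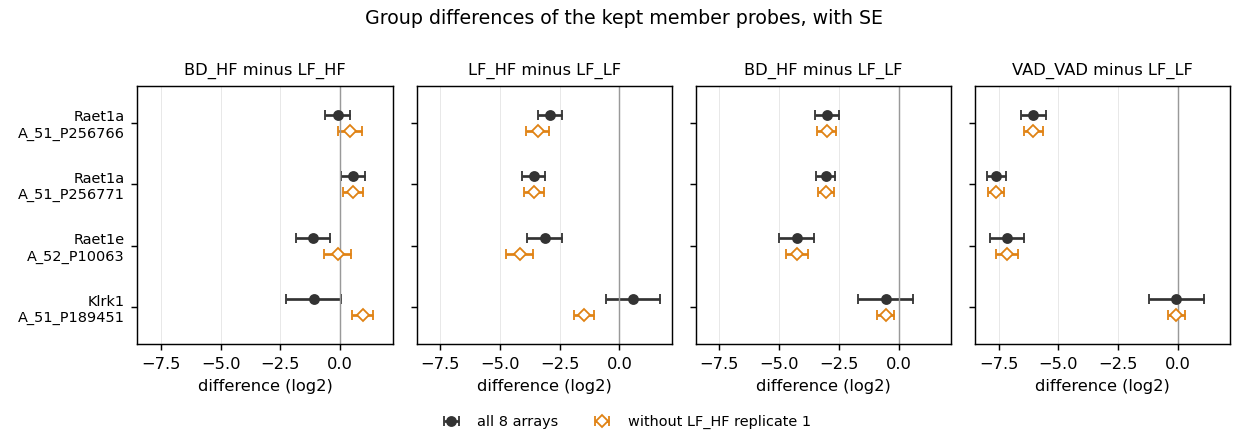
Difference between group means (log2, horizontal axis) of the 4 member probes that entered the fit, with the SE as bars, for all 8 arrays (filled circles) and without LF_HF replicate 1 (open diamonds). The Raet1 probes lie between −2.90 and −7.61 in the comparisons with LF_LF on all arrays, while Klrk1 lies at −0.08 in VAD_VAD minus LF_LF.

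The other genes of the NKG2D pathway were described through 13 lists, of which 12 had genes that entered the fit. Each gene was represented by its brightest kept probe and tested with limma's moderated test on all 8 arrays, with Benjamini-Hochberg adjustment over 26224 probes and a threshold of adjusted p under 0.05. In VAD_VAD minus LF_LF, 0.0579% of 17267 genes were higher and 0.353% lower at this threshold. In LF_HF minus LF_LF, which shares the LF_LF arrays with it, 0.492% were higher and 1.42% lower. In BD_HF minus LF_HF, 0.0% were higher and 0.00579% lower, and 0 genes of any list passed in that comparison, where 1483 probes had an unadjusted p under 0.05. The 1 gene called there was Tmem150b, named after its value was seen (limma adjusted p = 0.0486). It was below background on both BD_HF arrays and, by the same kind of floor, 4.75-fold lower than in LF_HF. That call was lost with slide as a block (adjusted p = 0.155) and without LF_HF replicate 1 (adjusted p = 0.103), and 0 probes passed with outlier spots kept.

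Leaving out LF_HF replicate 1 raised the share of all genes that were called, so counts given without it are read against higher shares. In that setting 1.25% of all genes were higher and 3.83% lower in VAD_VAD minus LF_LF, and 2.22% were higher and 8.32% lower in LF_HF minus LF_LF.

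The signalling partners of the receptor did not pass the test. Of 16 measured adaptors and signalling genes, 0 rose and 0 fell in VAD_VAD minus LF_LF or in LF_HF minus LF_LF, with medians of −0.65 and −0.81, against 0.09 and −0.02 over all genes. Hcst, which encodes the NKG2D adaptor DAP10, read 92.7 and 99.6 in VAD_VAD livers and 179 and 195 in LF_LF livers, a difference of −0.64 ± 0.29 (limma adjusted p = 0.556). Hcst in LF_HF was −0.83 ± 0.29 from LF_LF (limma adjusted p = 0.241). Tyrobp, which encodes the adaptor DAP12 used by many myeloid and NK receptors, differed by −0.66 ± 0.35 in VAD_VAD (limma adjusted p = 0.611) and by −1.28 ± 0.35 in LF_HF (limma adjusted p = 0.144), and it passed in LF_HF at −1.63 without replicate 1 (limma adjusted p = 0.0189). In that setting 4 of the 16 fell in LF_HF minus LF_LF, where 8.32% of all genes did.

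Several defining markers of the cells that carry NKG2D were also measured. Of 30 NK and cytotoxic lymphocyte markers, 16 entered the fit. Their median in VAD_VAD minus LF_LF was −0.69, against 0.09 over all genes, with 13 negative and 3 positive. In LF_HF minus LF_LF it was −0.008, against −0.02 over all genes, with 8 negative and 8 positive. Ncr1, the gene of the NK receptor NKp46, was at most 7.09 on 7 arrays and 672 on LF_HF replicate 1, and Eomes, an NK transcription factor, was at most 6.04 and 347. Klrb1c, which encodes NK1.1, differed by −0.50 ± 0.37 in VAD_VAD minus LF_LF (limma adjusted p = 0.722) and by −0.28 ± 0.37 in LF_HF minus LF_LF (limma adjusted p = 0.7504). The summed intensity of the 16 genes, before scaling, was 635 to 648 in BD_HF livers, 483 to 3097 in LF_HF livers, 728 to 841 in VAD_VAD livers and 2079 to 2756 in LF_LF. It was highest on LF_HF replicate 1, and the VAD_VAD sums lay above those of BD_HF and of LF_HF replicate 2, unlike the Raet1 signal. The part of this sum in the Raet1 differences was not tested.

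On the arrays other than LF_HF replicate 1, most of that sum was 1 gene, the chemokine Ccl5, which T and NK cells make. Ccl5 read 372 and 388 in BD_HF livers, 811 and 279.8 in LF_HF livers, 399 and 471 in VAD_VAD livers and 2072 and 1459 in LF_LF livers. It fell in LF_HF livers, with a log2 difference of −1.95 ± 0.33 (limma adjusted p = 0.0424), the 1 call among the 16 markers. The call was lost with slide as a block (adjusted p = 0.0655), and the difference was −2.05 without LF_HF replicate 1. With LF_HF replicate 1 left out, 1 marker fell in the VAD_VAD comparison, against 3.83% of all genes, where 0 markers passed on all arrays. The median of the markers in LF_HF minus LF_LF was then −1.11, against 0.12 over all genes. Of 11 T cell and 6 B cell markers, 0 passed in either comparison. Their medians were −0.14 and −0.84 in VAD_VAD minus LF_LF, and 0.41 and 0.04 in LF_HF minus LF_LF. Of 15 hepatocyte markers 0 passed as well (1 and 2 rose in VAD_VAD and LF_HF without LF_HF replicate 1), and all 15 differences were positive in VAD_VAD minus LF_LF, with a median of 0.71 against 0.09 over all genes, while 11 of 15 were positive in LF_HF minus LF_LF, with a median of 0.13. From LF_HF replicate 2 alone, the hepatocyte median in LF_HF minus LF_LF was 0.73, against 0.12 over all genes, close to that of VAD_VAD. Cyp2e1, a cytochrome P450 enzyme, was at 1.83 ± 0.44 in VAD_VAD minus LF_LF (limma adjusted p = 0.214). Alb was at 0.27 ± 0.42 in VAD_VAD minus LF_LF (limma adjusted p = 0.867) and at 0.0032 ± 0.42 in LF_HF minus LF_LF (limma adjusted p = 0.998), and it turned to −0.053 in VAD_VAD minus LF_LF with normexp and quantile scaling. The part of these shifts in the Raet1 differences was not tested.

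The remaining surface ligands read by NK cells, such as MHC class I, the DNAM-1 ligand Pvr and the Clec2 family, did not pass the test. Of 14 measured, 0 passed in either comparison, with medians of −0.13 in VAD_VAD minus LF_LF and −0.07 in LF_HF minus LF_LF. In LF_HF minus LF_LF, 1 of them fell once LF_HF replicate 1 was left out.

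Proteases that shed NKG2D ligands from the cell surface gave 1 call among 6. Mmp2, a gelatinase, fell in LF_HF minus LF_LF, with a log2 difference of −3.24 ± 0.58 (limma adjusted p = 0.0490). This call was lost with slide as a block (adjusted p = 0.0741), and the difference was −3.90 without LF_HF replicate 1. In VAD_VAD minus LF_LF 0 passed, and 1 fell without LF_HF replicate 1.

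Retinoic acid response genes were followed because Raet1 was named for its induction by retinoic acid. Of 14 listed, 10 entered the fit, and in VAD_VAD minus LF_LF 2 fell and all 10 differences were negative, with a median of −1.72 against 0.09 over all genes. Cyp26b1, an enzyme that clears retinoic acid, read 14.0 and 1.92 in VAD_VAD livers and 2055 and 845 in LF_LF livers, a log2 difference of −7.67 ± 0.96 (limma adjusted p = 0.0339). Lrat, the enzyme that forms retinyl esters, fell by 5.81 ± 0.67 (limma adjusted p = 0.0270, and 0.0552 with slide as a block). For both genes 1 of the 2 VAD_VAD arrays was well above background, so the size of each fall rests partly on a value under background.

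Other retinoid genes of this list lay just past the threshold. Cyp26a1, a further retinoic acid clearing enzyme, was below background on both VAD_VAD arrays. By the floor used for Raet1 it was 59.2-fold lower than in LF_LF (limma adjusted p = 0.0851). Rarb, a retinoic acid receptor and target, was −3.63 ± 0.61 (limma adjusted p = 0.0796). Without either LF_HF array, which removes the wide spread of that group from the shared error, 5 of the 10 fell in VAD_VAD minus LF_LF. Of all genes 3.83% fell there without LF_HF replicate 1.

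In LF_HF minus LF_LF, Cyp26a1 was −0.24 ± 1.32 (limma adjusted p = 0.953) and Rarb −1.54 ± 0.61 (limma adjusted p = 0.282). Without LF_HF replicate 1 the differences were −2.33 for Cyp26a1 and −2.40 for Rarb, from LF_HF replicate 2 alone. The Rarb probe read 165 and 272 in BD_HF livers and 541 and 64.6 in LF_HF livers. Its readings were 26.6 and 41.7 in VAD_VAD livers and 534 and 494 in LF_LF livers. The Cyp26a1 probe read 164 and 879 in BD_HF livers, 3037 and 66.1 in LF_HF livers, 2.75 and 1.58 in VAD_VAD livers and 437 and 570.2 in LF_LF livers, so that, unlike the Raet1 probes, its high fat values spread across the LF_LF values.

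Among the genes of dividing cells, some fell in both comparisons. Proliferation is a setting in which Raet1 is known to be transcribed, since E2F factors act on Raet1e in dividing mouse fibroblasts. Of 19 measured proliferation genes, 5 fell and 0 rose in VAD_VAD minus LF_LF (4 fell with slide as a block), with a median of −2.68. In LF_HF minus LF_LF 9 fell and 0 rose (7 fell with slide as a block), with a median of −2.30. Cdc20, needed for sister chromatids to separate, read 36.2 and 38.3 in BD_HF livers, 53.5 and 35.1 in LF_HF livers, 54.1 and 70.4 in VAD_VAD livers and 1905 and 1412 in LF_LF livers.

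The log2 difference of Cdc20 from LF_LF was −4.42 ± 0.39 in VAD_VAD (limma adjusted p = 0.0195) and −5.33 ± 0.39 in LF_HF (limma adjusted p = 0.00593). Mki67, the gene of the Ki-67 antigen, was at −3.49 ± 0.36 in VAD_VAD (limma adjusted p = 0.0238) and −4.27 ± 0.36 in LF_HF (limma adjusted p = 0.00736). The survivin gene Birc5 fell in both, at −3.53 in VAD_VAD and −4.13 in LF_HF, as did the cyclin gene Ccnb2, at −3.51 and −4.51 in the same order. Aurka, a mitotic kinase, fell by 2.68 in VAD_VAD (limma adjusted p = 0.04997, and 0.0872 with slide as a block), and Ccna2, a cyclin, and Plk1, a mitotic kinase, fell in LF_HF, with differences of −4.39 and −3.64.

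On the Cdc20, Mki67, Birc5 and Ccnb2 probes both VAD_VAD arrays lay above LF_HF replicate 2, and on the 3 Raet1 probes they lay below it, a difference in order that was not tested. The summed intensity of the 19 genes, before scaling, was 3209 to 3649 in BD_HF livers, 2559.9 to 5278 in LF_HF livers, 3898 to 3979 in VAD_VAD livers and 12963 to 15756 in LF_LF, and its part in the Raet1 differences was not tested. Leaving out LF_HF replicate 1, 11 fell in the VAD_VAD comparison and 14 in LF_HF minus LF_LF, against 3.83% and 8.32% of all genes in the same order.

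The list of E2F factors, DNA damage kinases and related genes, only some of which are known to raise NKG2D ligands, gave no call. Of 20 measured, 0 passed in either comparison, with E2f1 at −1.09 ± 0.50 in VAD_VAD minus LF_LF (limma adjusted p = 0.558) and at 0.07 ± 0.50 in LF_HF minus LF_LF (limma adjusted p = 0.966). Once LF_HF replicate 1 was left out, 1 fell in VAD_VAD, and 1 rose and 1 fell in LF_HF. Of 15 genes of the integrated stress response 0 passed in either comparison on all arrays. Without that array, 1 rose in VAD_VAD, and 2 rose and 2 fell in LF_HF.

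Among 20 p53 target genes, 0 fell in VAD_VAD minus LF_LF, and 2 in LF_HF minus LF_LF. Phlda3, an inhibitor of Akt, read 104 and 131 in BD_HF livers, 320.3 and 89.0 in LF_HF livers, 299 and 214 in VAD_VAD livers and 1609 and 1575 in LF_LF livers. It fell in LF_HF, with a log2 difference of −3.32 ± 0.34 (limma adjusted p = 0.0104). Pmaip1, which encodes the apoptosis factor Noxa, fell in LF_HF as well, at −1.94 ± 0.29 (limma adjusted p = 0.0317). Without LF_HF replicate 1, 2 fell in VAD_VAD minus LF_LF, where 3.83% of all genes did. The median in LF_HF minus LF_LF in that setting was −0.79, against 0.12 over all genes.

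**Figure D3:**
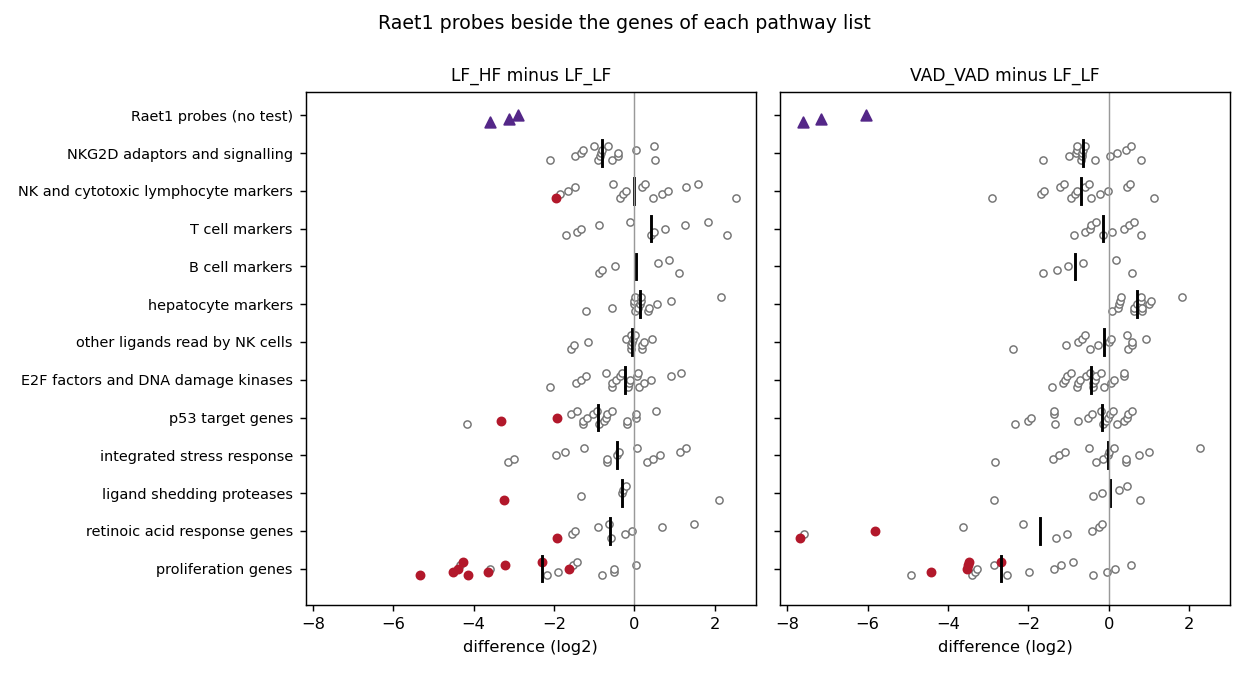
Differences (log2, horizontal axis) of the 3 Raet1 probes (triangles, untested) and of each measured gene in 12 pathway lists (circles, filled red where limma's adjusted p was under 0.05), with a black bar at the median of each list. The proliferation genes have medians of −2.68 in VAD_VAD minus LF_LF and −2.30 in LF_HF minus LF_LF, and the retinoic acid response genes a median of −1.72 in VAD_VAD minus LF_LF.

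These calls depended on which arrays entered the fit. Leaving out an array also widens the error of its own group's comparisons, apart from the shared estimate of the spread. Leaving out either LF_LF array left 0 genes called in any list, and leaving out either VAD_VAD or BD_HF array left 0 called in VAD_VAD minus LF_LF over all probes.

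The genes whose pattern over the 8 arrays was closest to the Raet1 probes were named by the root mean square difference of their centred log2 values from the mean Raet1 profile, over 24481 probes with a value on every array, whose median was 2.58. The second Raet1a probe has no value on LF_HF replicate 1 and entered the profile through its other 7 arrays. The first Raet1a probe and the Raet1e probe lay at 0.36 and 0.37 from it, as parts of that mean. The nearest named gene was Id4, an inhibitor of DNA binding by helix-loop-helix factors, at 0.97, followed by the chemokine gene Cxcl14 at 1.14. Shisa3 (1.22), the sodium channel gene Scn2a1 (1.26), Wfdc15b (1.26), the membrane protease gene Tmprss4 (1.26), the lipid droplet gene Cidea (1.30) and Ect2 (1.32), which acts in cytokinesis, came next.

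Cxcl14 read 82.6 and 96.3 in BD_HF livers, 286 and 129.9 in LF_HF livers, 25.8 and 26.2 in VAD_VAD livers and 553 and 563 in LF_LF livers, well above background throughout. Id4 read 16.2 and 18.9 in BD_HF livers, 56.9 and 9.97 in LF_HF livers, 4.26 and 3.26 in VAD_VAD livers and 99.5 and 89.6 in LF_LF livers, with both VAD_VAD arrays below background. With LF_HF replicate 1 left out, the 8 genes ranked between 5 and 20 among all kept probes with a value on every remaining array. That count includes the Raet1 probes and provisional names, unlike the order above. Among themselves the 8 kept their order, except that Shisa3 fell behind Scn2a1 and Wfdc15b. Shisa3, Scn2a1 and Tmprss4 were well above background only on both LF_LF arrays and LF_HF replicate 1. Their order over the remaining arrays therefore rests on values under background. The 8 genes were chosen for likeness, and no test is attached to it.

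**Figure D4:**
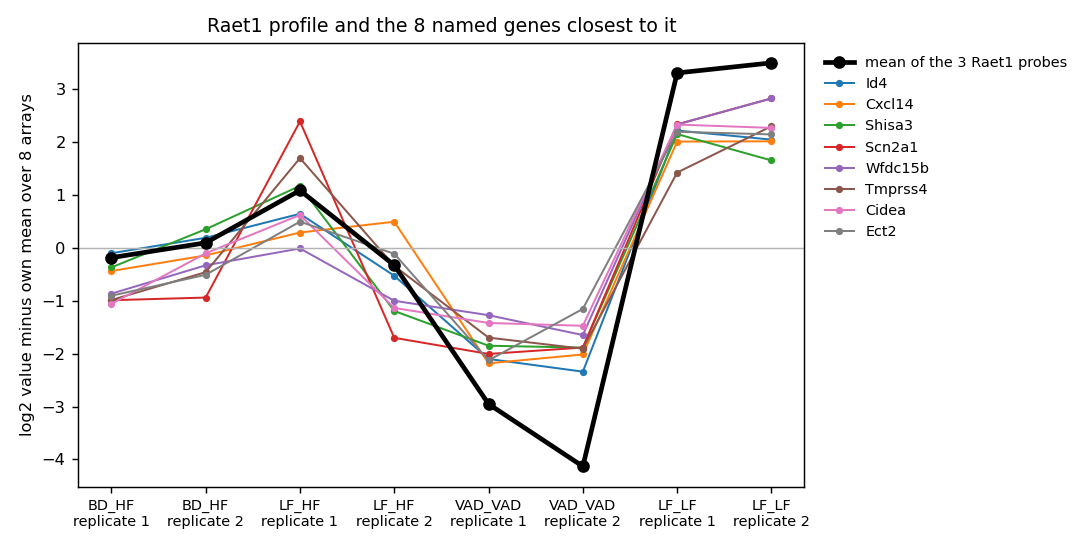
Centred log2 values (vertical axis) on the 8 arrays for the mean of the 3 Raet1 probes (thick black line) and the 8 named genes closest to it (thin lines). The Raet1 mean lies at 3.30 and 3.49 in LF_LF and at −2.95 and −4.13 in VAD_VAD, a wider span than that of any of the 8 genes.

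Genes on either side of the Raet1 cluster on chromosome 10 were also measured. The reference gene table (GRCm38.p6, used for gene order) places H60b between Raet1e and Raet1d. The 5 protein coding genes on each side were taken after the data had been seen, and 7 of these 10 entered the fit: Hbs1l, Aldh8a1, Sgk1, Tbpl1, Tcf21, Eya4 and Rps12. In VAD_VAD minus LF_LF 0 of the 7 passed, with differences from −1.64 to 0.72 and a smallest limma adjusted p of 0.519. In LF_HF minus LF_LF Sgk1, a kinase induced by glucocorticoids, fell by 2.47 ± 0.41 (log2, limma adjusted p = 0.0410, and 0.0539 with slide as a block). In the absence of LF_HF replicate 1 Tcf21, a mesenchymal transcription factor, fell as well. Aldh8a1, an aldehyde dehydrogenase, differed by 0.72 ± 0.40 in VAD_VAD minus LF_LF (limma adjusted p = 0.635).

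The start regions of Raet1e and Raet1d are shown because both genes may lie behind the Raet1 probes. The windows are RefSeq sequences of GRCm38.p6 that run from 250 bases before to 50 bases after the annotated start, 300 bases in all, on the plus strand at chr10:22173247-22173546 for the second of 2 Raet1e starts and at chr10:22361644-22361943 for Raet1d. Capitals mark the bases that differ.
Raet1e: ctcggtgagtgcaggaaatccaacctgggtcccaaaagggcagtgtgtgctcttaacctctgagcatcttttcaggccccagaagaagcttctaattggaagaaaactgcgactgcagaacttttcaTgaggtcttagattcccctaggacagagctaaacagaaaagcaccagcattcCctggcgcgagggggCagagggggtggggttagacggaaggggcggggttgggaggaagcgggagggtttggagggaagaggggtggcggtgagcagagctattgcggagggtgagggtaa
Raet1d: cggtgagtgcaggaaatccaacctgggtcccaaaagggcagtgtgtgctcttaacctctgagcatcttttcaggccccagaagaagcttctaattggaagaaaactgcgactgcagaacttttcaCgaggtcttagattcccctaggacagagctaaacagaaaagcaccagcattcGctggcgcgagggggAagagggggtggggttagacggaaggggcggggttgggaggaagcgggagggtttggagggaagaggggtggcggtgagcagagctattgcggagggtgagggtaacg

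Over the 298 bases that overlap, 295 were identical (99.0%) and 3 differed, so the 2 genes have nearly the same sequence around these starts. The other Raet1e start shared no such stretch with Raet1d, at 41.7% in its best overlap. The GC content was 56.0% in Raet1e and 56.3% in Raet1d, against a median of 52.7% over 32851 mouse windows. Both windows hold 1 GC box (GGGCGG, held by 35.7% of all windows), at positions −31 and −33 from the start, and 1 CCAAT box on the minus strand (CCAAT, 37.4%), at −156 and −158.

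Motifs of the factors named above were searched on both strands in the windows of Raet1e, Raet1d, Ulbp1 and Klrk1. The nuclear receptor sites AGGTCA (in 16.3% of all windows) and AGTTCA (14.0%), the E2F sites TTTCCCGC (1.07%) and TTTGGCGC (0.514%) and the TATA motif TATAAA (13.6%) had 0 matches in them. Ulbp1 and Klrk1 each held 1 CCAAT, at −198 and −35. A missing match says only that these letters are not in these windows.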

How the data were processed

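Liver RNA was amplified, labelled and hybridised to 8 single-colour Agilent arrays, per the labels' protocols. In the deposited files each spot has a processed intensity on a linear scale, raw and local background intensities and flags, from Feature Extraction 10.7.3.1 on design 014868, per the file headers. Limma is named in the submitters' processing notes, with no version. The deposited values of the series as a whole are the same intensities, within 0.497%. Each array had 43379 gene spots for 41174 probes, with 0 saturated. Samples were grouped by title, and 0 columns lacked a sample.

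Outlier spots were left out, spots of a probe were averaged, and log2 of the deposited intensity was taken here, minus the 75th percentile of the array. A probe was kept if both arrays of some group were well above background, which held for 26224. All 8 arrays entered 1 limma fit (version 3.58.1, lmFit and eBayes, two-sided, Benjamini-Hochberg per comparison, adjusted p under 0.05), run in R 4.3.3 with data.table, version 1.17.8. Tables and plots used Python 3.11.15, pandas 2.3.3 and matplotlib 3.10.9. The fit was tested on simulated data. Named from each list were the called genes, up to 6 by size, and fixed defining genes, and the 8 established symbols nearest the Raet1 profile. Members, lists and rules were chosen with earlier results of these data known. Alternatives were normexp (offset 50) with percentile or quantile scaling, no filter, a filter on all 8 arrays, trend and robust variances, slide as a block, outlier spots kept (chosen after seeing the data), and each array left out. Replicate numbers coincide with the 2 slides, and deviations of same-numbered arrays correlated at 0.0677 to 0.255, so the numbers were not taken as pairs. One result that the rule for named genes would have given is not reported here.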

Additional observations from a re-analysis of the deposited data

How the results depend on the processing

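The Raet1 differences from LF_LF kept their sign in 125 of 125 values over the alternatives, from −1.93 to −8.06. The VAD_VAD falls shrank to between −2.98 and −3.38 with normexp, smaller than the values and floor-based folds given on the processed signal. Klrk1 in LF_HF minus LF_LF ran from −1.49 to 2.62 and BD_HF minus LF_HF changed sign for Klrk1 and both Raet1a probes. Over all probes, VAD_VAD minus LF_LF had 91 calls (16.5% higher), 371 with normexp and the 75th percentile, 376 with normexp and quantiles, 0 with no filter (2150 at an unadjusted p under 0.05), 150 on probes above background on all 8 arrays (30.7% higher), 281 with trend and robust variances (33.5% higher), 40 with outlier spots kept and 0 to 1197 leaving out an array. LF_HF minus LF_LF had 404 calls (26.5% higher), 3137 (62.3% higher), 1458, 0 (6738 unadjusted), 658, 928, 176 and 0 to 6606 in the same order, with 2468 without LF_HF replicate 1. BD_HF minus LF_HF had 1, 1, 1, 0 (1737 unadjusted), 0 (1184 unadjusted), 1, 0 (1333 unadjusted) and 0 to 5226, the last without LF_HF replicate 2. With the replicate block, which is the slide, the counts were 53 in VAD_VAD minus LF_LF, 248 in LF_HF minus LF_LF (38.3% higher) and 0 in BD_HF minus LF_HF (1986 unadjusted). With no filter the median of all probes moved to 0.54 in LF_HF minus LF_LF, against 0.05. The cause of these moves was not tested.

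Uncalled values near 0 turned sign: Klrb1c to 0.066 (LF_HF) and 0.12 (VAD_VAD) with normexp and the 75th percentile, and Alb to −0.13 (LF_HF) there. With normexp and quantiles Alb was −0.053 (VAD_VAD), E2f1 −0.21 (LF_HF) and Cyp26a1 0.25 (LF_HF), with 0.043 under the 75th percentile. Leaving out an array, LF_HF minus LF_LF ran from −0.61 to 0.61 for Alb, from −0.50 to 0.63 for E2f1 and from −2.33 to 1.85 for Cyp26a1. Lists with called genes lost all calls with no filter. Signal close to background limits what can be said of Ulbp1, the H60 genes and Klrk1, and 2 arrays per group limit the rest.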
